A study of Homo sapiens with 23 samples.

Results

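The prolactin receptor and the JAK2-STAT5 pathway below it were followed as a group of 9 genes, PRLR, JAK2, STAT5A, STAT5B, SOCS1, SOCS2, SOCS3, CISH and ELF5. They are the rows of a table of 60605 Ensembl identifiers that carry these symbols in GENCODE release 44, and all 9 were found. Precision run-on sequencing (PRO-seq) was used, which reads RNA polymerases engaged on genes rather than the standing mRNA. The cells were T47D, a luminal breast cancer line that expresses the estrogen receptor, and all 23 libraries came from 1 clone (Clone 28) that carries a dTAG degron at the endogenous TRPS1 gene. The tagged TRPS1, a repressor of the GATA family, is degraded on addition of 2 ligands, dTAG-13 and dTAGV-1, called dTAG here. Control cells received 0.1% DMSO for 24 h (n = 4), and treated cells received 50 nM of each ligand for 0.5, 1, 2 or 4 h (n = 4 each) or for 24 h (n = 3, replicates 2 to 4). The comparisons ask whether transcription of the pathway genes changed after TRPS1 was lost. Each replicate number stands for its own harvest on a shared day, all in a single clone. The p-values measure the spread between those harvests or, where the replicate number is a block, the spread left once harvest differences are removed.

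Prolactin binds the prolactin receptor, a single-pass cytokine receptor without kinase activity of its own, and the receptor-bound kinase JAK2 then phosphorylates STAT5A and STAT5B. Phosphorylated STAT5 moves to the nucleus and switches on milk protein genes together with CISH and the SOCS genes, whose products bind the receptor or JAK2 and damp the signal. ELF5 is an ETS family transcription factor of the mammary alveolar lineage that works with STAT5 in the secretory program, and it is named here as the transcription factor of the pathway's mammary branch.

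A library held between 4408544 and 17571616 counts, at a median of 7001408 in replicate 1 against 11507673 in the rest. All 10 luminal epithelial markers passed the filter on low counts, and their summed level in DMSO was 7157 to 7934 CPM (counts scaled to the library's size), led by PGR and ESR1. Of 14 basal, stromal, endothelial and immune markers, 7 were below the filter, and the basal keratins KRT5, KRT14 and KRT17 had at most 3, 6 and 3 counts in a library. TRPS1 itself was 7997 to 10160 CPM in DMSO and 8928 to 11980 CPM on dTAG, and since dTAG acts on the protein, these values do not check its loss. In a fit with the replicate number as a block, TRPS1 was higher at every time, by 0.27 ± 0.04 on the log2 scale at 24 h. The edgeR adjusted p was 0.000135 at 24 h and at most 0.0558, at 0.5 h. Without the block the smallest was 0.288, at 24 h. Loss of transcription per cell and a change in the number of cells of one state cannot be told apart in bulk libraries.

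Sequence upstream of the members was taken from RefSeq on GRCh38.p14, as the 250 bases before each annotated start, and 15 such windows covered 8 of the 9 members. The windows of CISH, PRLR and ELF5 are printed because CISH is the classical STAT5 target of the group and because PRLR and ELF5 were the members called changed in a comparison below. The window of CISH lies at chr3:50611775-50612024 on the minus strand, those of the 2 PRLR starts at chr5:35230488-35230737 and chr5:35118123-35118372 on the minus strand, and that of ELF5 at chr11:34511725-34511974 on the minus strand, before a start inside the annotated span of ELF5. Capitals mark the STAT5 palindrome TTCNNNGAA in CISH and a GATA site in PRLR, searched on both strands.
CISH: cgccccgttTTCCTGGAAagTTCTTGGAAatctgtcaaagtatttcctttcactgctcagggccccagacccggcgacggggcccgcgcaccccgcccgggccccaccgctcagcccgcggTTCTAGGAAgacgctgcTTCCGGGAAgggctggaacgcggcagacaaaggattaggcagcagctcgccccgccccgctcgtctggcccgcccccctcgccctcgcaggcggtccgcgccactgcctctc
PRLR, start at the gene end: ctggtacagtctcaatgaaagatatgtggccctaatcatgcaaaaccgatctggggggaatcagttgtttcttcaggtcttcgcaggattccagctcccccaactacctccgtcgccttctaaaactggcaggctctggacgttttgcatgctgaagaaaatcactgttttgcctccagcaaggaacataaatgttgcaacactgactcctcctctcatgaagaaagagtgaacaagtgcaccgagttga
PRLR, internal start: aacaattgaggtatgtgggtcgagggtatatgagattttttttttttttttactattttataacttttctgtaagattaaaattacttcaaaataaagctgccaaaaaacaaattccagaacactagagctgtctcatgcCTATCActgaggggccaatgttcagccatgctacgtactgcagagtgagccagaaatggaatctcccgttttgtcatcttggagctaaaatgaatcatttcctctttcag
ELF5, internal start: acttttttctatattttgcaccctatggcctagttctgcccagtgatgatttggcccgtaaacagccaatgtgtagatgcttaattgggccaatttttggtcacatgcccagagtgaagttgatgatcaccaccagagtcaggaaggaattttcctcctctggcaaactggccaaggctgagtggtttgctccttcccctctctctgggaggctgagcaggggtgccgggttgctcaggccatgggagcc
The CISH window held 4 matches to the STAT5 palindrome, TTCCTGGAA, TTCTTGGAA, TTCTAGGAA and TTCCGGGAA, of which the nearest ended 104 bases before the start. Among 35116 promoter windows of the same length, 6.57% held at least 1 such match, and CISH was the only member with one. The GATA site was searched as AGATAA or the form AGATAG, and with T in first place as TGATAA or the form TGATAG. At least 1 was held by 22.3% of all windows, and PRLR was the only member with a match. That match lay 110 to 105 bases before the internal start and reads CTATCA, the reverse complement of TGATAG. The estrogen receptor half-site AGGTCA was held by 12.1% of all windows and among the members by STAT5A.

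The members spanned a wide range of transcription in DMSO, with PRLR far above the other genes. Levels between genes are compared as CPM per kb of annotated gene span. The interval counted is not stated, and spans ran from 1.788 kb for SOCS1 to 181.7 kb for PRLR, so the order depends on this scaling. By CPM without length, PRLR stayed 1, while ELF5 was 2 and SOCS1 was 6. PRLR stood at 23.4 ± 0.94 CPM per kb (mean ± SD, n = 4), followed by SOCS1 at 6.79 ± 0.708, CISH at 4.43 ± 0.387 and ELF5 at 3.06 ± 0.167. SOCS3 was at 1.73 ± 0.403 CPM per kb, STAT5B at 0.577 ± 0.0149, JAK2 at 0.377 ± 0.0277 and STAT5A at 0.119 ± 0.0197. None of these 8 overlapped its neighbour in the order across the 4 DMSO libraries. PRLR alone took 0.426% of all counts, a mean of 44146 per library, which made it 5th of all genes by CPM and 127th of 15720 protein-coding genes per kb. Its density was 62.3 ± 2.83 times that of JAK2 (n = 4).

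**Figure D1:**
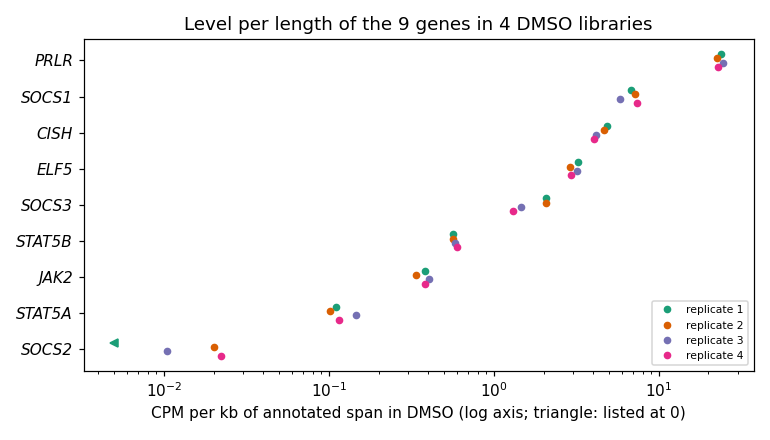
CPM per kb of annotated span in the 4 DMSO libraries for the 9 genes, on a log axis, with points coloured by replicate number and a triangle for a library at 0. PRLR lies near 23.4, and SOCS2 lies lowest.

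SOCS2, which binds phosphorylated receptors, was the one member below the filter on low counts. It had 0 to 6 counts in a library and 56 counts over all 23, at or under 0.48 CPM in every library. A count of 0 allows up to 3 counts. SOCS2 was highest at 2 h, at 2, 6, 6 and 4 counts, against 0, 2, 2 and 3 in DMSO, and these ranges overlapped. SOCS2 entered no test, so a difference between groups was not tested.

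**Figure D2:**
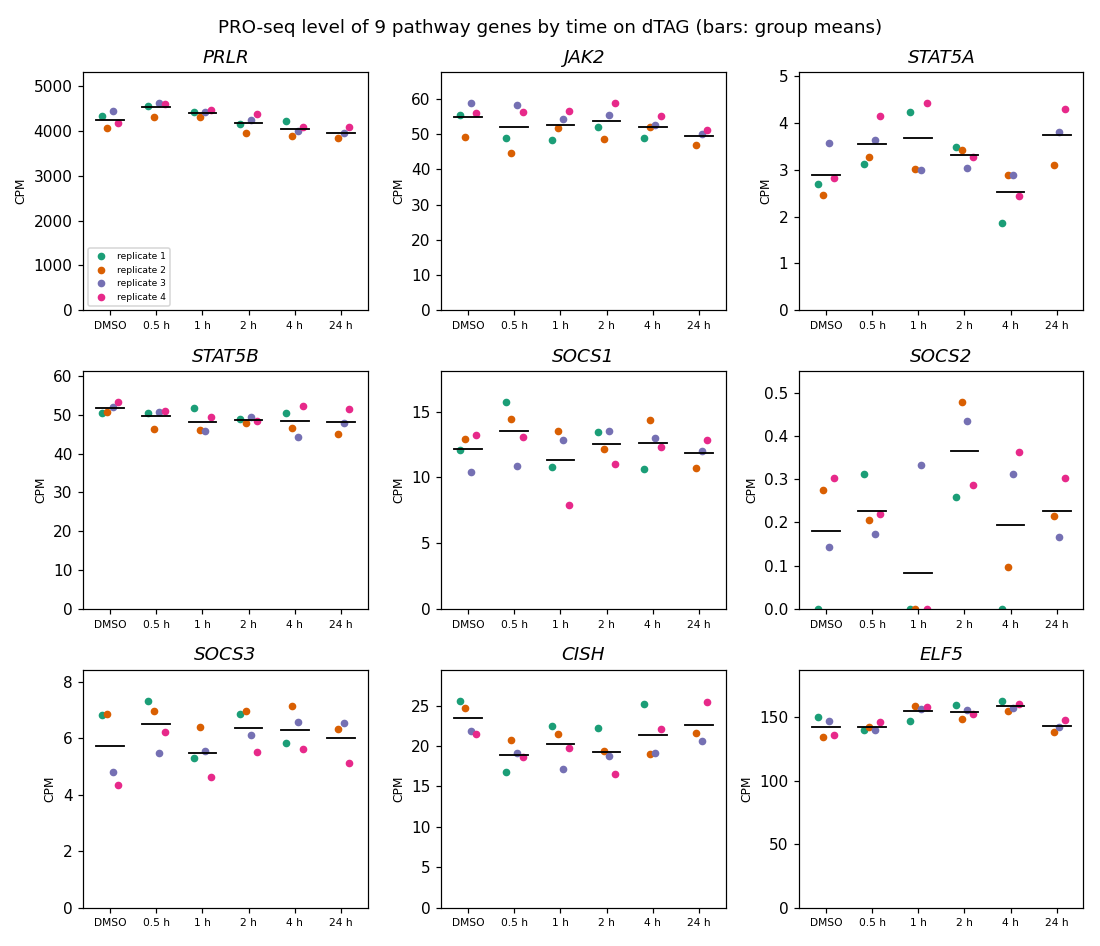
CPM of each member (y axis, from 0) in each library by treatment, with points coloured by replicate number and a bar at the group mean. PRLR moves between 3859 and 4632, and ELF5 at 4 h lies above its 4 DMSO libraries.

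PRLR encodes the receptor. Its CPM in DMSO replicates 1 to 4 was 4336, 4068, 4455 and 4178. At 0.5 h it was 4570, 4326, 4632 and 4598, and at 24 h, in replicates 2 to 4, it was 3859, 3952 and 4099. The 0.5 h libraries overlapped with DMSO, as the replicate 2 value lay inside the DMSO range, and each of the 4 was above the DMSO library of its own number. The 3 libraries at 24 h were each below their DMSO library, and all 3 lay below the 4 libraries at 0.5 h, as did 5.47% of all tested genes. At 1, 2 and 4 h the group means were 4412, 4186 and 4055 CPM. Against the 4 DMSO libraries, which all 5 contrasts share, the log2 fold change ran from 0.09 ± 0.04 (SE) at 0.5 h, through 0.05, -0.03 and -0.07 at the times between, to -0.10 ± 0.04 at 24 h. None of the 5 passed the edgeR quasi-likelihood test (smallest adjusted p = 0.608, at 24 h). With the replicate number as a block, the adjusted p was 0.0744 at 0.5 h and 0.0795 at 24 h, so both passed there. With a replicate left out as well, the block called PRLR in 0 of 4 fits at 0.5 h (edgeR adjusted p = 0.104 to 0.35) and in 2 of 4 at 24 h (0.0626 to 0.691). Between 24 h and 0.5 h, which shares no DMSO library, PRLR fell by 0.19 ± 0.04 on the log2 scale (-12.4%, edgeR adjusted p = 0.0383). With the block the same difference was -0.18 ± 0.03 (edgeR adjusted p = 0.00034). Without the block, the call was lost without replicate 1 (edgeR adjusted p = 0.107), replicate 3 (0.523) or replicate 4 (0.296) and held without replicate 2 (0.0653), at log2 differences of -0.21 to -0.18. With the block it held in 4 of 4 such fits (edgeR adjusted p = 0.000285 to 0.0342).

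JAK2 encodes the receptor-bound kinase. It was 49.25 to 58.84 CPM in DMSO and 44.68 to 58.92 CPM on dTAG, and the ranges overlapped in each comparison. Its log2 fold change ran from -0.15 ± 0.08 at 24 h to -0.03 at 2 h, with a smallest edgeR adjusted p of 0.781 and 0.127 with the block. It was lower in 14 of 19 same-numbered pairs.

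STAT5A and STAT5B encode the factors that JAK2 phosphorylates. STAT5B was the more transcribed of the pair, at 4.95 ± 0.697 times the CPM per kb of STAT5A in DMSO (n = 4). STAT5B was 50.39, 50.76, 52.04 and 53.31 CPM in DMSO, and 44.15 to 52.34 CPM on dTAG. It was lower than or equal to its DMSO library in 17 of 19 pairs, at log2 fold changes of -0.06 to -0.10, and passed no test (smallest edgeR adjusted p = 0.61). At 2 h its libraries did not overlap with DMSO, as did 2.2% of all tested genes on the lower side. STAT5A was 2.469 to 3.579 CPM in DMSO and 1.859 to 4.431 on dTAG, with log2 fold changes of -0.17 to 0.36 and a smallest edgeR adjusted p of 0.69. It rested on 7 to 69 counts a library. The 2 genes overlap head to head on opposite strands over 1087 bases. The sources used here do not state whether strand was counted, but the counts differ by strand. Genes nested in a host on the opposite strand had a median of 0.0666 of the counts that the host's density gives (426 genes), against 0.823 for those on the same strand (201 genes). A pseudogene antisense within PRLR had a mean of 0.087 counts, where the density of PRLR gives 187.

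CISH encodes an inhibitor that binds the receptor and is induced by STAT5. In DMSO it was 25.62, 24.69, 21.9 and 21.47 CPM. At 0.5 h it was 16.84, 20.8, 19.14 and 18.62 CPM, below all 4 DMSO libraries, as were 2.39% of all tested genes. The log2 fold change was -0.31 ± 0.11 (unadjusted p = 0.00966, edgeR adjusted p = 0.373), and -0.28 with the block (edgeR adjusted p = 0.146). The later times gave -0.21, -0.29, -0.14 and -0.05 in order, and none passed the test with or without the block. At 2 h the edgeR adjusted p was 0.142 with the block. With a replicate left out as well, the block called CISH at 2 h in 1 of 4 fits (edgeR adjusted p = 0.0924 to 0.414). CISH was lower in 17 of 19 pairs, which share the 4 DMSO libraries. Its span overlaps that of MAPKAPK3 on the other strand by 255 bases.

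SOCS1 and SOCS3 encode inhibitors of JAK2 and of cytokine receptors. SOCS1 was 10.38 to 13.2 CPM in DMSO and 7.94 to 15.75 CPM on dTAG, with log2 fold changes of -0.08 to 0.15 and a smallest edgeR adjusted p of 0.946. SOCS3 was 4.334 to 6.859 CPM in DMSO and 4.616 to 7.328 CPM on dTAG, with log2 fold changes of -0.03 to 0.19 and a smallest edgeR adjusted p of 0.89. Neither gene passed a test with or without the block. SOCS1 lies inside RMI2, which is on the opposite strand and had a mean of 751 counts against 129 for SOCS1.

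ELF5 was the 1 member called against DMSO without the block. Its CPM in DMSO was 150.2, 134.8, 147.1 and 136.1, and at 4 h 163.1, 155, 156.9 and 160.3. The 4 h libraries were all above the 4 DMSO libraries, as were 2.51% of all tested genes. The log2 fold change was 0.16 ± 0.04 (11.8% higher, edgeR adjusted p = 0.0843, and 0.0286 with the block). At 1 h it was 0.13 ± 0.04 (edgeR adjusted p = 0.205, and 0.0857 with the block) and at 2 h 0.12 ± 0.04 (0.348, and 0.147 with the block). At 0.5 h and 24 h it was 0.00 and 0.01. Without the block, the 4 h call was lost with each replicate left out in turn (log2 fold change 0.13 to 0.18, edgeR adjusted p = 0.136 to 0.726) and with total counts in place of TMM scaling (0.828). With the block it held in 1 of 4 such fits, that without replicate 1 (edgeR adjusted p = 0.0182), and the 1 h call also in 1 of 4, without replicate 1 (0.0186).

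**Figure D3:**
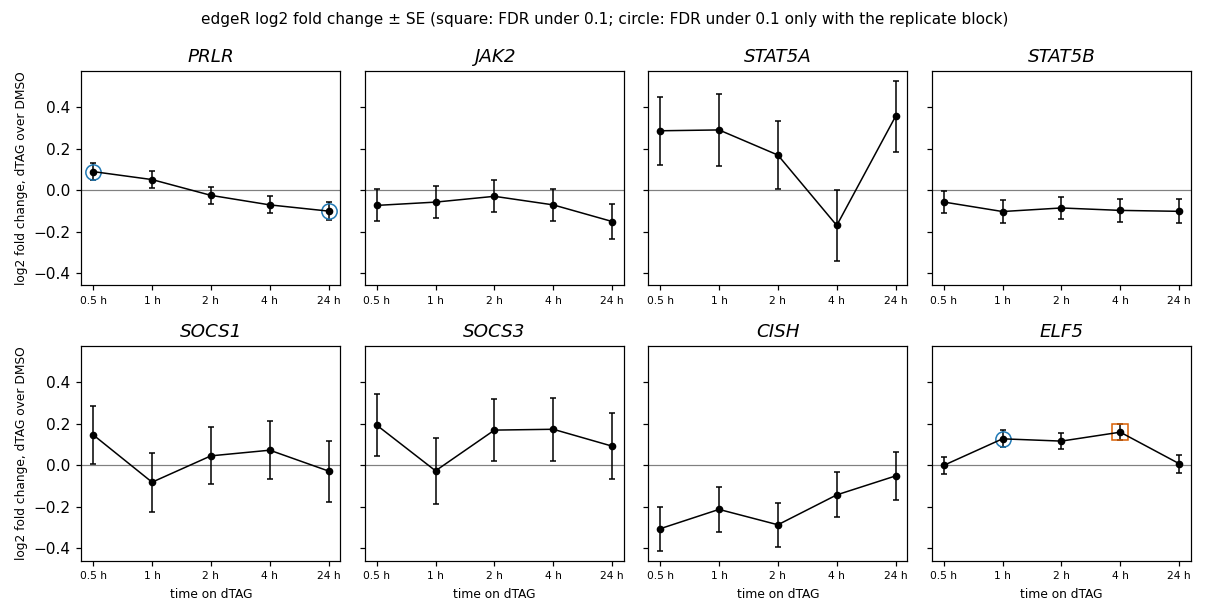
Log2 fold change of dTAG over DMSO (y axis) with its SE for 8 members at 5 times (x axis), from the edgeR fit without a block. A square marks an FDR under 0.1, at 4 h for ELF5, and a circle one that passes only with the replicate block, at 0.5 and 24 h for PRLR and 1 h for ELF5.

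Calls among the 8 tested members are given beside the share of all genes called, and 8 genes are too few to compare the shares. At an FDR under 0.1, edgeR called 0 members over the time course from DMSO to 4 h, where 1.33% of all genes were called, and 2 members had an unadjusted p under 0.05, as did 8.51% of all genes. It called 0 members at 0.5, 1, 2 and 24 h, where 0.476%, 1.25%, 0.733% and 0.863% of all genes were called and 2, 1, 2 and 1 members had an unadjusted p under 0.05, as did 7.68%, 9.42%, 7.1% and 7.38% of all genes. DESeq2 called 2 members over the time course, PRLR and ELF5, where it called 557 of 25255 genes fitted. At 0.5 and 24 h DESeq2 called 0 members, where of 26057 genes fitted it called 261 and 344. At 1 and 2 h the smallest DESeq2 adjusted p of a member was 0.115 and 0.223, both for ELF5. At 4 h DESeq2 called ELF5 (adjusted p = 0.0245). Between 24 h and 0.5 h it called PRLR (adjusted p = 0.000133), where it called 793 genes. DESeq2 gave no adjusted p for STAT5A in any comparison, and for SOCS3 only at 24 h against DMSO. At 4 h 1 member of 8 was called, against 0.833% of all genes, and between 24 h and 0.5 h 1 member of 8, against 1.99%. With the block, 2 members were called over the time course, PRLR and ELF5, against 4.6% of all genes. The block gave 1, 1, 0, 1 and 1 members at 0.5, 1, 2, 4 and 24 h, against 2.48%, 3.25%, 2.43%, 2.49% and 2.65% of all genes. Between 24 h and 0.5 h it gave 1, against 6.34%. The median log2 fold change of the 8 was 0.05 at 0.5 h and -0.04 at 24 h, beside 0.01 and 0.00 for all genes.

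Coding genes within 200 kb of PRLR and ELF5 were read from the same fits. EHF, an ETS factor of epithelia, lies 95.9 kb from ELF5 and was higher at every time, by 0.27 ± 0.04 on the log2 scale at 0.5 h (edgeR adjusted p = 0.00324) and by 0.21 ± 0.05 at 24 h (0.0266), in 19 of 19 pairs. Its CPM was 393.4 to 429.9 in DMSO and 454.5 to 510.6 on dTAG, with no overlap. Without the block and with a replicate left out, EHF was called in 2 of 4 fits at 0.5 h and 1 of 4 at 24 h. With the block EHF was called in 4 of 4 at both times. ABTB2, 121 kb from ELF5, was lower at 4 h by -0.20 ± 0.05 (edgeR adjusted p = 0.0985), and CAT, 6.73 kb away, was not called. AGXT2 starts 0.621 kb past the end of PRLR on the same strand, and was 0.21 ± 0.11 at 0.5 h and -0.09 ± 0.12 at 24 h on the log2 scale. It was called against DMSO only with the block, at 0.5 and 1 h (edgeR adjusted p = 0.0653 and 0.0127). Between 24 h and 0.5 h AGXT2 was -0.301 ± 0.114 (edgeR adjusted p = 0.275), and -0.355 ± 0.0603 with the block (0.00122). TTC23L, 148 kb from PRLR, was higher at 4 h (0.21 ± 0.05, edgeR adjusted p = 0.0678) and at 24 h (0.30 ± 0.05, 0.00451). RAD1, BRIX1 and DNAJC21 were not called.

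**Figure D4:**
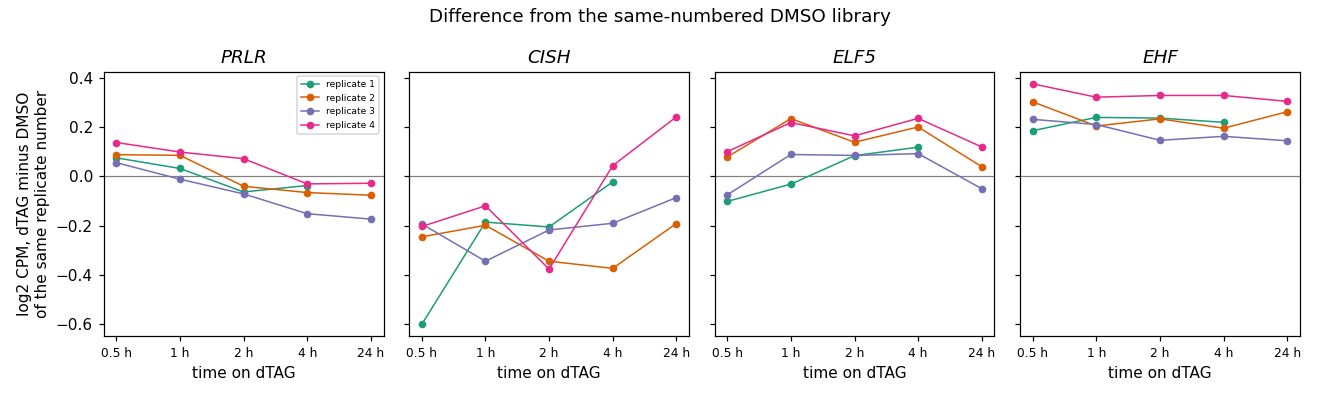
Difference in log2 CPM between each dTAG library and the DMSO library of the same replicate number (y axis) by time on dTAG (x axis), 1 line per replicate. PRLR moves from above 0 at 0.5 h to below 0 at 24 h, and EHF is above 0 in all 19 libraries.

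The genes whose pattern over the 23 libraries was most like that of PRLR, after each replicate number's mean was removed, were KCNH1 (Pearson r = 0.936), KCNMA1 (0.887) and SPINK5 (0.884), among 14148 genes compared. For ELF5 they were MGST1 (0.833), MDM2 (0.824) and ARHGAP15 (0.822). ELF5 and EHF had an r of 0.383. These are descriptions, since the libraries share their treatments and depth.

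Other genes of the pathway were read from the same fits. Against DMSO, 0.476% to 1.25% of all genes were called without the block and 2.43% to 3.25% with it. The lists are too short to compare with these shares. The 5 ligand genes PRL, GH1, GH2, CSH1 and CSH2 had at most 6 counts in a library and were below the filter. Of 19 tested cytokine receptors, 8 other JAK and STAT genes and 16 other inhibitors, edgeR called none against DMSO without the block. With the block, IL6ST was called lower at 0.5, 2 and 24 h (edgeR adjusted p = 0.08, 0.0343 and 0.037), and IL20RB (0.0926) and CBL (0.08) lower at 0.5 h. LIFR (0.0577) and OSMR (0.0737) were called higher at 24 h with the block. Of 22 adaptors and kinases, 1 was called, IRS1, an adaptor of insulin and cytokine receptors, at 4 h (0.21 ± 0.05, edgeR adjusted p = 0.0586) and at 24 h (0.34 ± 0.05, 0.00173). With a replicate left out, IRS1 was called in 0 of 4 fits at 4 h and 3 of 4 at 24 h without the block. With the block these were 2 of 4 and 4 of 4. The block added PIK3CA, PIK3R1, GAB1 and VAV2, each at 1 or more times. Of 21 STAT5 target and milk genes, 13 were tested and edgeR called none without the block. CSN1S1, CSN2, CSN3 and LALBA, which encode milk proteins, had at most 3, 2, 4 and 6 counts in a library. With the block PIP, a secreted protein of breast apocrine cells, was higher at every time (0.37 at 0.5 h, edgeR adjusted p = 0.00526) and CCND1, a cyclin of the cell cycle, was lower at 1, 2 and 4 h (-0.25 at 1 h, edgeR adjusted p = 0.000761). Of 10 other ETS factors, EHF was called higher at every time and SPDEF, a luminal ETS factor, lower at 0.5, 1, 2 and 4 h (-0.35 ± 0.05 at 0.5 h, edgeR adjusted p = 0.00112). At 24 h SPDEF was -0.09 ± 0.05 (0.787). Without the block and with a replicate left out, the SPDEF call held in 4 of 4 fits at 0.5 h and 0 of 4 at 4 h. The block added ELF4 and ETV5.

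Of 10 luminal markers, edgeR called only GATA3 against DMSO without the block, and of 7 tested markers of other cells only TP63. With the block PGR, KRT19, KRT8 and XBP1 were also called lower, each at 1 or more times. GATA3, a luminal transcription factor, was lower at 0.5 h (-0.22 ± 0.03, edgeR adjusted p = 0.00112), and it was called at 1, 2 and 4 h but not at 24 h. Without the block and with a replicate left out, these calls held in 3, 4, 1 and 0 of 4 fits at 0.5, 1, 2 and 4 h. TP63, a basal transcription factor, was higher at 24 h (0.49 ± 0.09, edgeR adjusted p = 0.00722), at 18.34 to 20.78 CPM in DMSO and 26.85 to 29.48 CPM at 24 h. It was also called at 1, 2 and 4 h. With a replicate left out, the 24 h call of TP63 held in 2 of 4 fits without the block and 4 of 4 with it. The summed level of the 14 other-cell markers was 44.65 to 50.21 CPM in DMSO and 53.95 to 55.08 CPM at 24 h, with TP63 alone at a mean of 19.8 and 27.8 CPM and no other marker of that list called. The summed level of the 10 luminal markers was 7157 to 7934 CPM in DMSO and 6610 to 7282 CPM at 24 h. Their part in the results for the members was not tested.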

How the data were processed

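PRO-seq was made from 23 libraries of Clone 28 cells. Per the study's methods and the submitters' processing notes, the authors trimmed reads (cutadapt 1.8.1), collapsed duplicates by molecular identifier, removed ribosomal reads, aligned with Bowtie2 2.4.4 to hg38, used SAMtools 1.9 and counted with bedtools. The deposited values are raw counts per gene. The annotation, the interval counted and the use of strand are not given in the sources used here, and strand was checked in the counts themselves. Depth sets the precision: a member with few counts, such as STAT5A, carries counting error near its spread.

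Groups and replicate numbers came from the sample titles. Counts were fitted in R 4.3.3 with edgeR 4.0.16 (glmQLFit, glmQLFTest), TMM scaling and filterByExpr at a minimum count of 10 and a total of 15. This left 26057 genes in the contrasts of all 23 libraries and 25255 in the time course of 20. Tests were two-sided, p-values were Benjamini-Hochberg adjusted over all kept genes, and an FDR under 0.1, the study's threshold, was a call. SE is the log2 fold change over the square root of F. CPM are counts scaled to TMM library sizes. Spans and overlaps came from GENCODE release 44 on hg38, which matched 60463 identifiers. The scripts were tested on simulated counts.

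The treatment protocol in the labels places each replicate at its own harvest time in the day, and within a replicate all times were collected together. Deviations from group means correlated at a mean r of 0.287 between same-numbered libraries (55 pairs, of which 18 were at or under 0.1) and -0.0825 between others (165 pairs). The mean r was 0.578 within replicate 1, 0.0896 within replicate 2, 0.434 within replicate 3 and 0.141 within replicate 4. All pairs at or under 0.1 were in replicates 2 and 4. The fit without the block is the main one, since the study's methods name no replicate term. The common dispersion, edgeR's measure of spread between libraries, was 0.02492 in the contrasts without the block and 0.004891 with it. With no block it was 0.006717 without replicate 1, and 0.0331, 0.02854 and 0.03361 without replicates 2, 3 and 4. Much of the spread in the main fit thus came with replicate 1, which has no library at 24 h.

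The members and lists were chosen with earlier results of these data known. Named genes were the 9 members, up to 4 per list called against DMSO without the block, the 3 genes most like each called member (mean of at least 100 counts), and coding neighbours within 200 kb. PIP, CCND1, IL6ST, IL20RB, CBL, LIFR, OSMR, STAT6, JAK1, PIK3CA, PIK3R1, GAB1, VAV2, ELF4 and ETV5 fall outside that rule and were named after their values were seen. The same holds for the block calls of PGR, KRT19, KRT8 and XBP1. Alternatives were median-of-ratios factors, total counts, no filter, DESeq2 1.42.0, the block, only the groups compared, and leaving out each replicate.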

Additional observations from a re-analysis of the deposited data

Results flagged for a closer look

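Among 45 sets of a member and a treatment group, 2 held a library far from the others of its group, and chance flags about 1 in 20. STAT5B was 46.4 CPM in replicate 2 at 0.5 h, below the 3 other libraries of that group. SOCS2 was 0.333 CPM in replicate 3 at 1 h, where the 3 other libraries were at 0. That value is 3 counts, no more than a count of 0 allows, so it is not separable from the others.

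Differences between the first and the last time were tested as a contrast of 24 h with 0.5 h. The log2 difference was -0.191 for PRLR (edgeR adjusted p = 0.0383), 0.257 for SPDEF (0.0179), 0.227 for IRS1 (0.0386) and 0.168 for GATA3 (0.0131). Of the pathway lists, LIFR (0.48, edgeR adjusted p = 0.0114), STAT6 (0.271, 0.0366) and JAK1 (-0.166, 0.0873) were also called in this contrast.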

How the results depend on the processing

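Counts below run over the time course, then 0.5, 1, 2, 4 and 24 h against DMSO, then 24 h against 0.5 h. The main fits called 335, 124, 325, 191, 217, 225 and 519 genes. The replicate block gave 1162, 645, 846, 634, 650, 691 and 1653 genes, total counts in place of TMM 93, 30, 142, 81, 87, 110 and 127, and no filter on low counts 178, 47, 163, 114, 127, 126 and 172. With only the 2 groups compared, the 6 contrasts gave 2, 69, 79, 38, 106 and 61. DESeq2 gave 557 genes over the time course, 261 at 0.5 h, 344 at 24 h and 793 between 24 h and 0.5 h. All 23 libraries with 5 times gave 706 genes over the time course. The cause of these differences was not tested.

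Members called were 2 over the time course with DESeq2, with the block and with all 23 libraries, against 0. The block called 1 member at 0.5, 1 and 24 h, against 0. Beyond these PRLR and ELF5 calls, the block changed no call of a member. The ELF5 call at 4 h became 0 with median-of-ratios factors, total counts, no filter and only the 2 groups compared, and the PRLR call between 24 h and 0.5 h became 0 with total counts and with only the 2 groups compared. DESeq2 and the block kept both of these calls. Ranked by CPM without length, ELF5 was 2, JAK2 3, STAT5B 4, CISH 5, SOCS1 6 and SOCS3 7.

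Leaving out each replicate, with and without the block, gave 38 to 1550, 14 to 717, 75 to 733, 43 to 791, 64 to 815, 38 to 1096 and 19 to 1885 genes, and 0 to 2 members over the time course, 0 at 0.5 h and 0 to 1 at 1, 2, 4 and 24 h and between 24 h and 0.5 h. Some values near 0 changed sign. ELF5 at 0.5 h was 0.00767 without the filter and 0.000759 with the block, and -0.0357 to 0.0302 with a replicate left out. SOCS1 at 24 h was 0.00208 with total counts. With a replicate left out, SOCS1 ran from -0.226 to 0.112 at 1 h, -0.0872 to 0.156 at 2 h, -0.0156 to 0.161 at 4 h and -0.111 to 0.102 at 24 h. SOCS3 ran from -0.112 to 0.10 at 1 h, -0.0641 to 0.262 at 24 h and -0.255 to 0.0346 between 24 h and 0.5 h. CISH at 24 h ran from -0.191 to 0.0648, ELF5 at 24 h from -0.0423 to 0.0389, and ELF5 between 24 h and 0.5 h from -0.00667 to 0.036. The fits that leave out a replicate with the block were chosen after seeing the data. DESeq2 gave no adjusted p for some low genes, STAT5A and SOCS3 among the members. Depth limits SOCS2 and STAT5A most.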
